A study of Mus musculus with 9 samples.

Results

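The transcription factors that hold mouse embryonic stem cells in the naive pluripotent state were followed through 9 RNA-seq libraries of embryoid bodies (EBs). The set was listed by name as known naive factors. No measured value enters the rule, but the list was made with earlier results of these data known. It held 10 of the 55471 genes in the count table. Its members were *Nanog*, *Klf2*, *Klf4*, *Klf5*, *Esrrb*, *Tfcp2l1*, *Zfp42*, *Tbx3*, *Prdm14* and *Nr5a2*, and all 10 passed the filter on low counts in every comparison.

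EBs are aggregates that embryonic stem (ES) cells form when they start to differentiate, and the study asked how loss of *Tnfaip2*, a gene related to the exocyst subunit gene *Exoc3*, changes that step and whether lipids revert the change. There were 3 groups of 3 libraries. WT EBs came from the parental E14 line and KO EBs from *Tnfaip2*-/- cells of the same line. KO_PAPC EBs were *Tnfaip2*-/- EBs given the fatty acid palmitic acid (PA) together with its carnitine ester palmitoyl-L-carnitine (PC) at 8 μM each. All EBs were formed from hanging drops of 1000 cells and then kept in differentiation medium for 3 days. The KO was a single CRISPR/Cas9 clone with an early stop codon in the second exon, so effects of the clone and of the gene cannot be told apart. As the study's methods are written, drops for the standard assay were set up in ES cell medium, which holds Leukemia Inhibitory Factor (LIF), whereas drops with PA/PC were set up in MEF medium, which does not list it. PA/PC and the medium of the drops therefore cannot be told apart in any comparison with KO_PAPC. WT EBs with PA/PC were not analysed here.

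Naive factors bind together at shared enhancers, sustain each other's transcription and are fed by LIF through STAT3. When ES cells leave the naive state the network is shut down, while the core factors *Pou5f1* and *Sox2* stay on and formative genes such as *Otx2* and *Fgf5* rise. Loss of *Zfp42* and *Nanog* transcript is therefore widely used to follow this exit, and persistent expression to recognise cells that have not left.

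The promoters of *Nanog*, *Zfp42* and *Esrrb* are shown because they are 3 of the 4 members highest in WT per kilobase and carry different sites for the factors of the network itself. Each sequence holds the 250 bases before a RefSeq transcription start on GRCm38.p6, read 5′ to 3′ on the strand of the gene, with matches to the searched motifs in capitals.

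*Nanog*, chr6:122707239-122707488, plus strand: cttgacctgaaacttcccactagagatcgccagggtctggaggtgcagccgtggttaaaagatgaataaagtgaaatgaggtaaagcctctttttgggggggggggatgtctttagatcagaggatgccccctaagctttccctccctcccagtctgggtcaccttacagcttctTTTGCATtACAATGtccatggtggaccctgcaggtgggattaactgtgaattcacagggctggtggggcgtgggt
*Zfp42*, chr8:43307010-43307259, minus strand: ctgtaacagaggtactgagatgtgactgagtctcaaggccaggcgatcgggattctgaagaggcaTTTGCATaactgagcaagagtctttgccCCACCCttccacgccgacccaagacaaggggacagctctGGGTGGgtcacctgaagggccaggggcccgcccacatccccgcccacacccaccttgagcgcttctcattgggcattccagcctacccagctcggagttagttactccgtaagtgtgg
*Esrrb*, chr12:86360867-86361116, plus strand: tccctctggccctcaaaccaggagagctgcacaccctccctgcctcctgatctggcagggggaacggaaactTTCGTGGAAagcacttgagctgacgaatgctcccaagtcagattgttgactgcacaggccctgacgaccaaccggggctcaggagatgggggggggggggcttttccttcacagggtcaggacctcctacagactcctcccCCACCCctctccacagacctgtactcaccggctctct

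In *Nanog* the capitals mark an octamer site of POU5F1 (ATGCAAA, here on the reverse strand) whose first base lies at -75 from the start, and next to it, at -67, a SOX site (CATTGT, also reverse). In *Zfp42* they mark an octamer site at -185 and KLF sites (CCACCC) at -157 and, on the reverse strand, at -118. *Esrrb* held a STAT site (TTCNNNGAA) at -178 and a KLF site at -37. RefSeq windows of 300 bases, 250 before and 50 after a start, were found for 7 of the 10 members and not for *Klf5*, *Tbx3* and *Prdm14*. *Nanog*, *Esrrb* and *Nr5a2* each had a window at another start as well. From the other start of *Nanog*, the same octamer and SOX sites lie at -151 and -143, with a KLF site at -50. The other window of *Esrrb* held a KLF site at -103. Among 32851 such windows of all genes, 4.63% held the octamer, 12.6% the SOX site, 31.5% the KLF site and 8.3% the STAT site on either strand. A half-site of ESRRB and NR5A2 (AAGGTCA, in 4.72% of windows), a T-box site (GGTGTGA, in 3.98%) and the PRDM14 motif (GGTCTCTAA, in 0.256%) were in none of the members' windows. The windows of *Klf2* and *Nr5a2* held KLF sites only, and those of *Tfcp2l1* and *Klf4* none of the 7 motifs. In the 50 bases after the start, which are not printed, *Nanog* also held a KLF site and *Esrrb* a SOX site. These are matches of letters and say nothing of whether a factor was bound.

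*Nanog* lies on the plus strand of chromosome 6 of GRCm38, from 122707489 to 122714633, and *Klf2* on that of chromosome 8, from 72319033 to 72321656. *Klf5* (chromosome 14, 99298691 to 99315036), *Esrrb* (chromosome 12, 86361117 to 86521628), *Tfcp2l1* (chromosome 1, 118627945 to 118685168) and *Tbx3* (chromosome 5, 119670669 to 119684724) are also on the plus strand. *Klf4* (chromosome 4, 55527143 to 55532466), *Zfp42* (chromosome 8, 43295063 to 43306980), *Prdm14* (chromosome 1, 13113457 to 13127163) and *Nr5a2* (chromosome 1, 136842571 to 136960448) are on the minus strand. All 10 are protein-coding.

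Depth was even, with 27362913 to 28914312 counts per library. *Tnfaip2* had 5 to 25 counts per library and could not be tested between KO and WT, so it does not check the labels. In KO_PAPC it lay above KO (log2 fold change 1.72 ± 0.363, SE, edgeR adjusted p = 5.49e-05). Transcript of *Pou5f1*, a core factor and marker of pluripotent cells, was abundant in every library, at 668, 697 and 687 CPM in WT, at 705, 702 and 679 CPM in KO and at 817, 863 and 849 CPM in KO_PAPC. CPM here is the count scaled to a common library total. In pools of EBs, fewer cells that express a gene and less RNA per cell cannot be told apart. The study describes the libraries as biological replicates, and those of KO and KO_PAPC as independent pools of EBs of 1 clone, so p-values measure the spread between such replicates. Whether the WT libraries were made and sequenced together with the others is not stated, and a batch of that kind cannot be told apart from the group in the comparisons with WT.

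All 10 factors were still expressed after 3 days of differentiation, and their levels spanned a wide range. Per kilobase of exon, the WT mean ran from 172 ± 2.86 CPM (SD, n = 3) for *Nanog* down to 7.67 ± 0.391 CPM for *Nr5a2*. Between them the order was *Zfp42* at 134 ± 0.616 CPM per kilobase, *Klf2* at 120 ± 8.75, *Esrrb* at 50.03 ± 0.239, *Klf5* at 36.5 ± 0.369, *Klf4* at 17.98 ± 0.574, *Tbx3* at 17.4 ± 0.307, *Prdm14* at 12.4 ± 0.679 and *Tfcp2l1* at 10.96 ± 0.108. Only *Klf4* and *Tbx3* overlapped among neighbours in WT. In KO, *Nanog* (347 ± 5.35 CPM per kilobase) and *Klf2* (340 ± 7.71 CPM per kilobase) shared the top and overlapped, and in KO_PAPC they did so again at 128 ± 3.11 and 125 ± 5.91 CPM per kilobase. *Tbx3* moved from the seventh place in WT to the fifth in KO and to the ninth in KO_PAPC, where it overlapped with *Prdm14*, and *Prdm14* with *Nr5a2*. With the longest transcript in place of all exons, *Tbx3* and *Klf4* changed places in WT, *Klf5* and *Tbx3* in KO, and *Prdm14* and *Tbx3* in KO_PAPC.

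**Figure D1:**
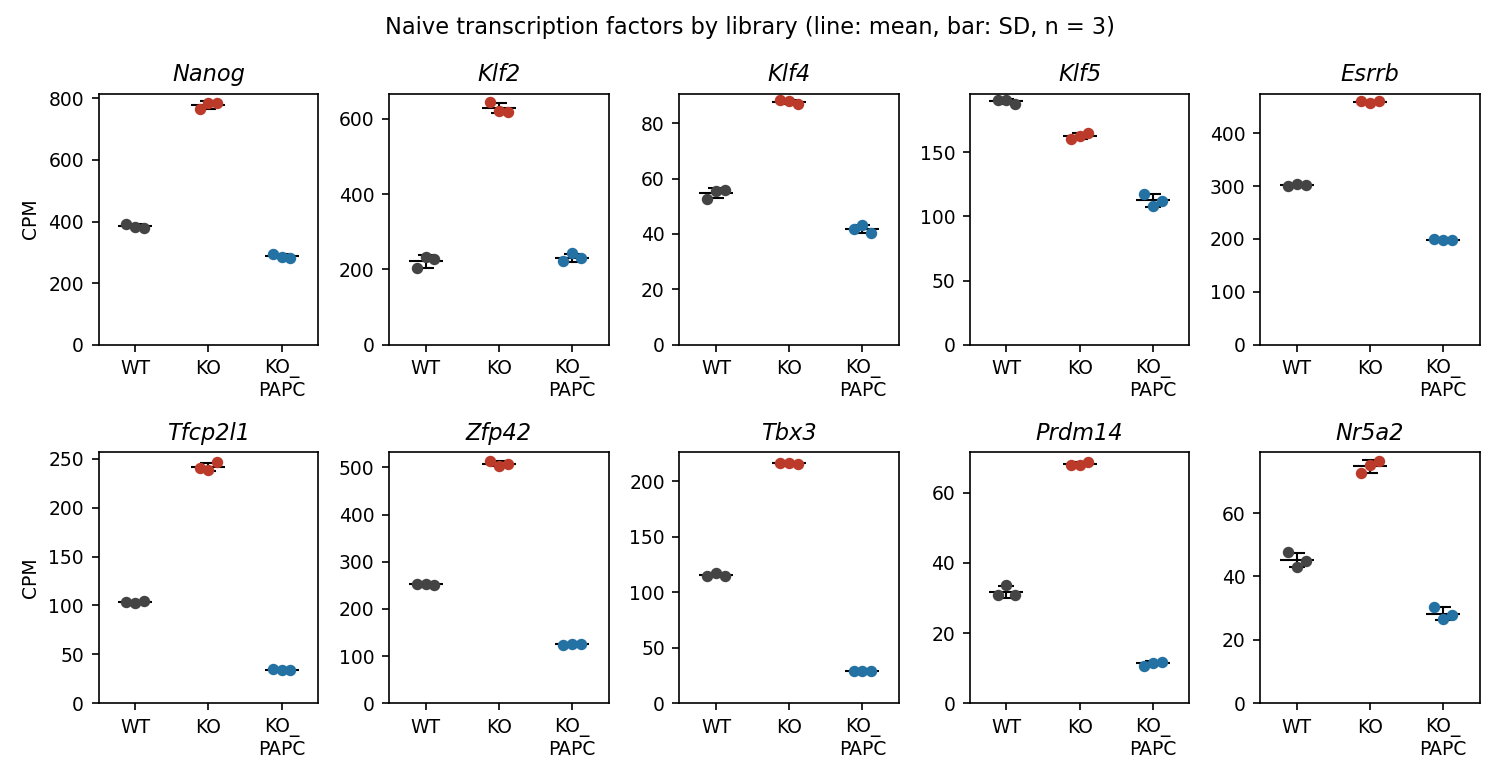
Level of each naive factor in CPM (counts scaled to a common library total, vertical axis, from 0) in the 3 libraries of each group. Points are libraries, horizontal lines the means and bars the SD. In 9 panels KO is the highest group, and in the panel of *Klf5* the levels step down from WT to KO to KO_PAPC.

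In KO EBs, 9 of the 10 naive factors were higher than in WT. *Klf2*, *Tfcp2l1* and *Prdm14* rose the most, *Nanog* and *Zfp42* doubled, and *Klf5* was the only one that fell. In edgeR, 36.8% of the 17355 tested genes were called higher in KO and 37.1% lower, so a call alone is common here. Past a minimum fold change of 2, where 5.36% of genes were called higher and 3.79% lower, 3 members were called higher (*Klf2*, *Tfcp2l1* and *Prdm14*) and none lower. The median log2 fold change of the members was 0.96, against -0.0059 over all tested genes. No member's KO libraries overlapped with its WT libraries.

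*Nanog*, the homeodomain factor at the centre of the network, was at 392, 382 and 380.4 CPM in WT and at 765, 785 and 785 CPM in KO. Every KO library was well above every WT library, and the log2 fold change was 1.02 ± 0.0214 (SE, edgeR adjusted p = 2.18e-29), a size exceeded by 15.3% of tested genes. *Zfp42*, which encodes REX1 and is the classical marker gene of the naive state, followed closely, with 253, 252 and 251 CPM in WT and 513, 502 and 508 CPM in KO (log2 fold change 1.01 ± 0.0222, edgeR adjusted p = 6.68e-29). Of its 51-base transcript words, 8.31% also occurred in the processed pseudogene *Zfp42-ps1*, whose counts were 10.5% to 11.3% of those of *Zfp42* in every library. Of the words of *Nanog*, 4.39% occurred elsewhere, but its pseudogene *Nanog-ps1* had no more than 1 count in any library.

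*Klf2*, a Krüppel-like zinc finger factor that can sustain self-renewal, changed most of all members. It was at 203, 233 and 227 CPM in WT and at 645, 622 and 619 CPM in KO, a change of 1.51 ± 0.0311 on the log2 scale (edgeR adjusted p = 1.18e-29) that 7.47% of genes exceeded. *Klf4*, a partner of overlapping function and a direct target of STAT3, was at 52.8, 55.7 and 56.0 CPM in WT and at 88.3, 87.9 and 87.0 CPM in KO (log2 fold change 0.68 ± 0.0339, edgeR adjusted p = 1.03e-18). *Klf5*, the third KLF of the network, went the other way. It lay at 191, 191 and 187 CPM in WT and at 161, 162 and 165 CPM in KO. The fall was small (log2 fold change -0.22 ± 0.0255, edgeR adjusted p = 1.8e-09), and 66.0% of tested genes changed by more.

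The orphan nuclear receptors rose by similar amounts. *Esrrb*, a direct target of NANOG that can stand in for it, was at 301, 304 and 303 CPM in WT and at 462, 458 and 460.3 CPM in KO (log2 fold change 0.61 ± 0.0218, edgeR adjusted p = 9.66e-23). *Nr5a2*, which binds regulatory regions of *Pou5f1*, was at 47.7, 43.1 and 45.0 CPM in WT and at 72.6, 75.1 and 76.6 CPM in KO (log2 fold change 0.72 ± 0.0382, edgeR adjusted p = 4.57e-18). The libraries of both genes separated by group.

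Among the remaining factors, *Tfcp2l1*, a CP2-family factor and a main effector of LIF and STAT3, was at 103, 103 and 105 CPM in WT and at 241, 239 and 247 CPM in KO (log2 fold change 1.23 ± 0.0265, edgeR adjusted p = 4.33e-29). *Tbx3*, a T-box factor, was at 114, 118 and 114 CPM in WT and at 217, 216 and 215 CPM in KO (log2 fold change 0.91 ± 0.0264, edgeR adjusted p = 2.34e-25). *Prdm14*, which represses FGF receptor signalling and the de novo DNA methyltransferase genes, was the lowest of the 3, at 30.8, 33.8 and 30.8 CPM in WT and at 68.1, 67.8 and 68.8 CPM in KO. Its log2 fold change was 1.10 ± 0.0404 (edgeR adjusted p = 1.7e-22), and against a minimum fold of 2 its edgeR adjusted p was 0.025. Of the exons of *Tbx3*, 1.74% overlapped the antisense gene *Tbx3os1*, and reads there cannot be assigned because strand was not read.

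With PA/PC, all 10 factors fell from their level in KO. The falls were uneven: *Tbx3*, *Tfcp2l1* and *Prdm14* dropped by more than 2 on the log2 scale, while *Klf5* lost little. EdgeR called 42.2% of 17167 tested genes lower and 39.6% higher in KO_PAPC versus KO. Past a minimum fold of 2, with 14.4% of genes lower and 6.26% higher, 8 members were lower and none higher, the exceptions being *Klf4* and *Klf5*. The median log2 fold change of the members was -1.28, against -0.017 over all genes. All 10 members had KO_PAPC libraries below every KO library.

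*Tbx3* was left with 29.0, 28.8 and 28.9 CPM in KO_PAPC, a change of -2.74 ± 0.0343 from KO on the log2 scale (edgeR adjusted p = 1.27e-38). *Tfcp2l1* was left with 34.9, 33.8 and 34.0 CPM (log2 fold change -2.66 ± 0.0336, edgeR adjusted p = 1.57e-38), and *Prdm14* with 10.7, 11.5 and 11.8 CPM (log2 fold change -2.42 ± 0.0497, edgeR adjusted p = 5.39e-32). Among all tested genes, 6.56%, 6.93% and 8.26% changed by more than *Tbx3*, *Tfcp2l1* and *Prdm14* did. *Zfp42* came next, at 124, 126 and 126 CPM in KO_PAPC, changed by -1.85 ± 0.0265 on the log2 scale (edgeR adjusted p = 7.4e-37).

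The falls of *Nanog*, *Klf2* and *Nr5a2* were almost the same size. *Nanog* was left with 294, 286 and 281 CPM (log2 fold change -1.27 ± 0.0251, edgeR adjusted p = 1.44e-32). *Klf2* was at 221, 243 and 230 CPM (log2 fold change -1.28 ± 0.0285, edgeR adjusted p = 6.85e-31). *Nr5a2* was at 30.4, 26.6 and 27.8 CPM (log2 fold change -1.24 ± 0.0439, edgeR adjusted p = 1.61e-24). Their 95% confidence intervals overlapped, from -1.32 to -1.22 for *Nanog*, -1.34 to -1.22 for *Klf2* and -1.32 to -1.15 for *Nr5a2*. *Esrrb* fell a little less, to 199, 197 and 198 CPM (log2 fold change -1.05 ± 0.0252, edgeR adjusted p = 7.64e-30), and lay close to the minimum fold tested (edgeR adjusted p = 0.0359 against a fold of 2). *Klf4* was at 41.9, 43.4 and 40.4 CPM (log2 fold change -0.90 ± 0.0373, edgeR adjusted p = 1.9e-22) and *Klf5* at 118, 108 and 112 CPM (log2 fold change -0.36 ± 0.0312, edgeR adjusted p = 3.74e-13). *Klf5* thus fell in both comparisons, and 63.6% of genes changed more than it in KO_PAPC versus KO.

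**Figure D2:**
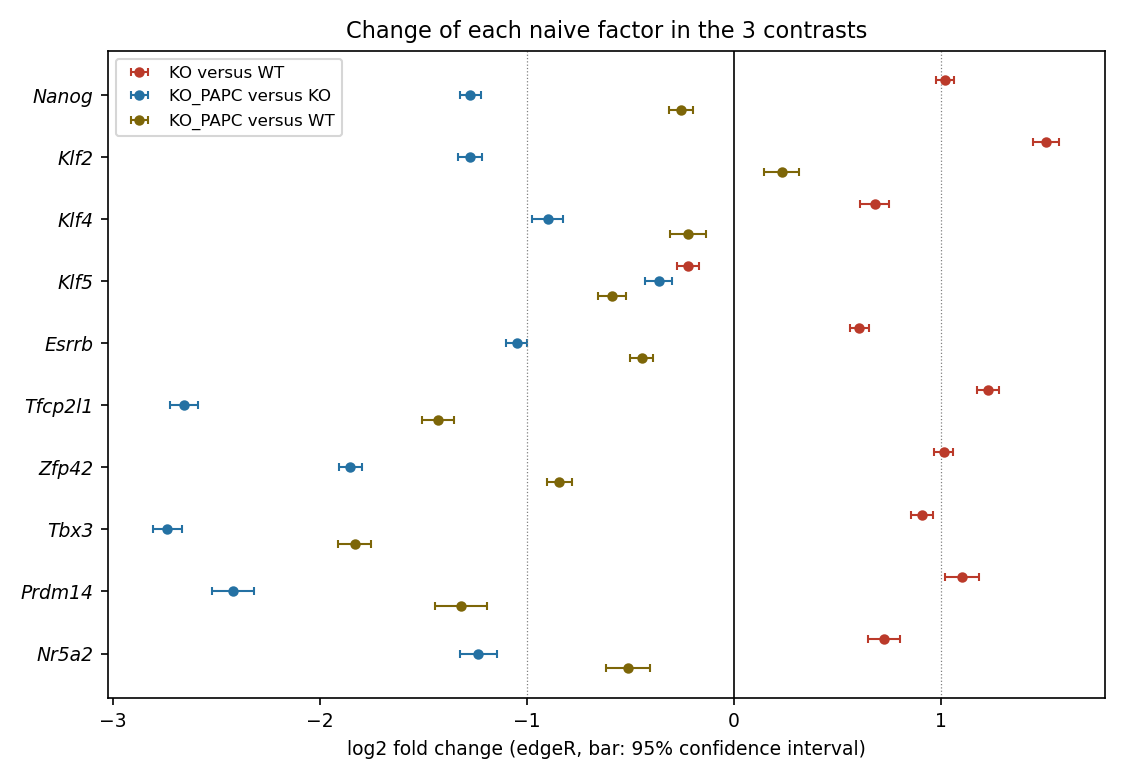
Log2 fold change (horizontal axis) of each naive factor in the 3 comparisons, from edgeR, with 95% confidence intervals. Dotted lines mark a fold change of 2. Points of KO versus WT lie right of 0 except for *Klf5*, points of KO_PAPC versus KO lie left of 0 for all 10 genes, and for KO_PAPC versus WT only *Klf2* lies right of 0.

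Set against WT, the KO_PAPC EBs did not return to the WT level for most factors but went below it. EdgeR called 9 members lower and 1, *Klf2*, higher in KO_PAPC versus WT, where 36.4% of 16655 tested genes were called lower and 34.2% higher. Past a minimum fold of 2, with 7.05% of genes lower and 0.961% higher, *Tbx3*, *Tfcp2l1* and *Prdm14* were lower and none was higher. The median log2 fold change of the members was -0.55, against -0.017 over all genes. This comparison shares its libraries with the ones before it, so its values are not a separate line of evidence.

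*Tbx3* was lowest relative to WT, with a log2 difference of -1.83 ± 0.0382 (edgeR adjusted p = 1.1e-22), followed by *Tfcp2l1* at -1.43 ± 0.0375 (edgeR adjusted p = 1.12e-20) and *Prdm14* at -1.32 ± 0.0612 (edgeR adjusted p = 1.05e-15). As a share of the WT mean in CPM, *Tbx3* stood at 24.9% to 25.2% in the KO_PAPC libraries, *Tfcp2l1* at 32.7% to 33.7% and *Prdm14* at 33.7% to 37.2%. *Zfp42* was on average at 49.7% of WT (log2 fold change -0.84 ± 0.029, edgeR adjusted p = 2.73e-18), which places it between these and the rest. Lower by less were *Klf5* (log2 fold change -0.59 ± 0.0332), *Nr5a2* (-0.51 ± 0.052), *Esrrb* (-0.45 ± 0.0273), *Nanog* (-0.26 ± 0.0282) and *Klf4* (-0.22 ± 0.042), with edgeR adjusted p of 4.26e-05 or less for each of these 5 genes. KO_PAPC and WT libraries did not overlap for any of the 9 lower members. *Klf2* was the exception: its WT libraries (203, 233 and 227 CPM) and KO_PAPC libraries (221, 243 and 230 CPM) overlapped. Its log2 fold change of 0.23 ± 0.04 (edgeR adjusted p = 1.68e-05) was no longer called with library totals in place of TMM size factors (0.064, edgeR adjusted p = 0.158). That scaling shifted the all-gene median by -0.17 on the log2 scale in either comparison with KO_PAPC, and shares of the WT mean in CPM are on it.

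Ratios between members within a library do not depend on scaling, and they show that the network did not move as a block. Relative to *Nanog*, *Klf2* was higher in KO than in WT by 0.49 on the log2 scale and stayed there in KO_PAPC (mean log2 ratios of -0.80 in WT, -0.31 in KO and -0.31 in KO_PAPC). *Klf5* relative to *Nanog* was at -1.02 in WT, -2.26 in KO and -1.35 in KO_PAPC. *Klf5* relative to *Klf2* was at -0.22 in WT, -1.95 in KO and -1.04 in KO_PAPC. The proportions among the 3 KLF members thus differed most between WT and KO. *Zfp42* kept its ratio to *Nanog* in KO (-0.61 in WT and -0.62 in KO) but not in KO_PAPC, where it was at -1.20. *Tbx3*, *Tfcp2l1* and *Prdm14* also kept within 0.21 of their WT ratio to *Nanog* in KO and lay 1.57, 1.17 and 1.06 below it in KO_PAPC. The ratio of *Nr5a2* to *Esrrb* stayed within 0.12 of its WT mean of -2.74 in both other groups. With 3 libraries a group, the smallest permutation p possible for a ratio is 0.1, and none was tested.

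**Figure D3:**
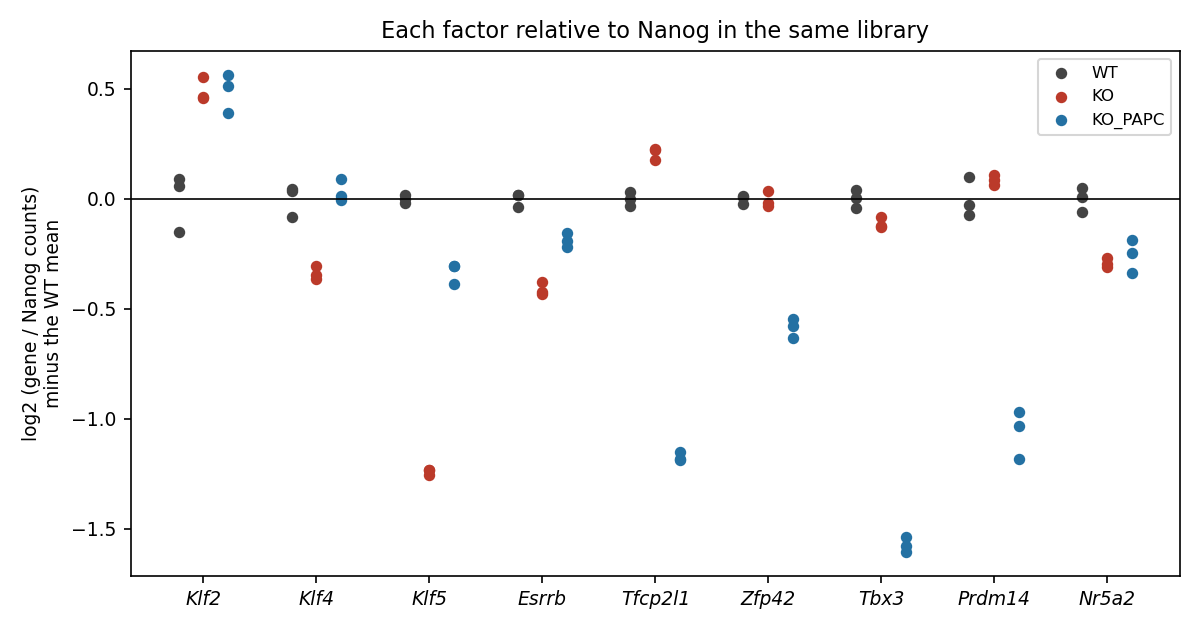
Log2 ratio of each factor's counts to those of *Nanog* in the same library, minus the mean of that ratio in WT (vertical axis). Points are libraries. *Klf5* stands lowest in KO, at more than 1.2 below WT, and *Tbx3*, *Tfcp2l1* and *Prdm14* stand lowest in KO_PAPC, where each mean is more than 1 below WT.

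Summed per kilobase, the 10 factors came to 578 ± 6.81 (SD, n = 3), 1191 ± 4.72 and 405 ± 4.79 CPM per kilobase in WT, KO and KO_PAPC. *Nanog* made up 29.7%, 29.1% and 31.6% of the sum in these groups. *Klf2* took 20.7%, 28.6% and 30.9% in the same order, and *Zfp42* 23.2%, 22.7% and 16.4%. *Tbx3* took 3.01%, 2.74% and 1.08%.

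The KLF family, the 3 naive members included, moved in both directions. Of its 17 genes, 9 were higher and 4 lower in KO versus WT (median log2 fold change 0.17). In KO_PAPC versus KO, 6 of the 16 tested genes were higher and 8 lower, with a median of -0.13. Over all genes, 39.6% were higher and 42.2% lower in that comparison, and 36.8% and 37.1% in the former. *Klf8*, which is no naive factor, also rose in KO and fell with PA/PC: it was at 27.8, 25.8 and 25.1 CPM in WT, at 65.4, 66.9 and 67.1 CPM in KO and at 15.4, 14.4 and 13.2 CPM in KO_PAPC. It differed by 1.34 ± 0.0417 on the log2 scale between KO and WT (edgeR adjusted p = 1.56e-24), and by -2.05 ± 0.0497 between KO_PAPC and KO (edgeR adjusted p = 1.1e-29). Unlike *Klf2*, it ended below WT, with a log2 fold change of -0.71 ± 0.0632 in KO_PAPC versus WT (edgeR adjusted p = 3.37e-10). *Klf2* and *Klf8* were the family's members past a minimum fold of 2 in both comparisons. *Klf11* moved the other way, by -0.95 ± 0.0385 in KO (log2 scale, edgeR adjusted p = 2.94e-21) and by 0.94 ± 0.0401 with PA/PC (edgeR adjusted p = 4.96e-22).

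**Figure D4:**
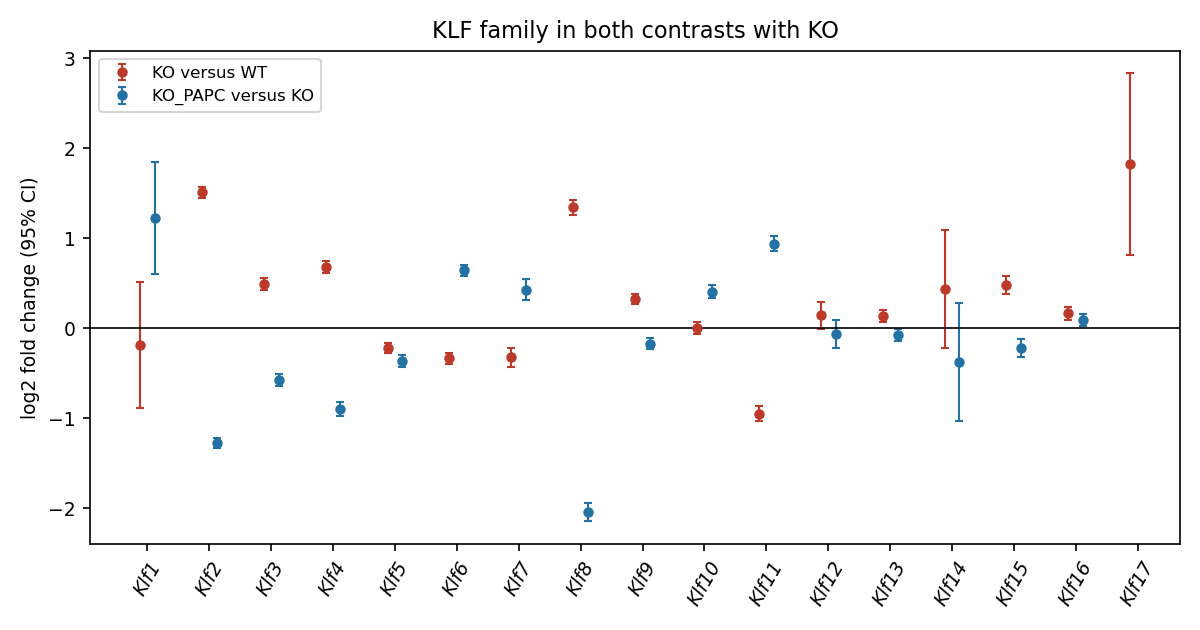
Log2 fold change (vertical axis, edgeR, with 95% confidence intervals) of the 17 KLF genes for KO versus WT (red) and for KO_PAPC versus KO (blue). *Klf2* and *Klf8* stand above 1 in the first and below -1 in the second, *Klf11* shows the opposite signs, and *Klf17* was not tested in the second.

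Upstream of the network, the LIF pathway kept its summed level in KO. Of its 6 genes, 2 were higher, 2 lower and 2 not called. That is near the shares over all tested genes, 36.8% higher and 37.1% lower. The sum was 342 to 346 CPM in WT, 342 to 343 CPM in KO and 282 to 286 CPM in KO_PAPC. *Lifr*, the LIF receptor, was at 75.5, 72.6 and 75.5 CPM in WT and lower in KO at 50.1, 47.2 and 46.1 CPM (log2 fold change -0.64 ± 0.037, edgeR adjusted p = 5.71e-17). *Il6st*, the shared receptor subunit gp130, was higher in KO (log2 fold change 0.30 ± 0.0291, edgeR adjusted p = 3.51e-11), and so, by little, was the kinase gene *Jak1* (0.089 ± 0.0313, edgeR adjusted p = 0.011, lost with DESeq2 at an adjusted p of 0.0655). *Stat3* was not called in any comparison, with log2 fold changes of 0.054 between KO and WT, -0.019 between KO_PAPC and KO and 0.032 between KO_PAPC and WT. With library totals it was called lower in KO_PAPC, by -0.19 versus KO (edgeR adjusted p = 9.47e-06) and -0.13 versus WT (edgeR adjusted p = 0.00167). *Socs3*, the feedback inhibitor that STAT3 induces, was at 8.47, 9.53 and 8.37 CPM in WT, 6.58, 5.46 and 5.98 CPM in KO and 24.8, 24.1 and 23.0 CPM in KO_PAPC. It was lower in KO (log2 fold change -0.55 ± 0.0886, edgeR adjusted p = 1.51e-06) and higher in KO_PAPC versus KO (2.16 ± 0.0715, edgeR adjusted p = 1.8e-25). *Lif* itself differed little between WT and KO (log2 fold change -0.089, edgeR adjusted p = 0.251) and fell with PA/PC (-1.44 ± 0.0921 versus KO, edgeR adjusted p = 1.04e-16).

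Other genes of the naive state followed the factors less uniformly. Of 12 such genes, 9 were higher and 2 lower in KO versus WT (median log2 fold change 0.73), and 9 were lower and 1 higher in KO_PAPC versus KO, with a median of -0.65. Over all tested genes, 36.8% were higher and 37.1% lower in the former comparison, and 42.2% lower and 39.6% higher in the latter. Past a minimum fold of 2, 4 were higher and 0 lower in KO versus WT, and 5 lower and 0 higher in KO_PAPC versus KO. *Sox15*, a SOX factor that can bind with POU5F1, was at 8.19, 9.74 and 8.84 CPM in WT, at 42.4, 44.1 and 41.6 CPM in KO and at 4.36, 4.31 and 4.38 CPM in KO_PAPC. It rose in KO by 2.26 ± 0.0582 on the log2 scale (edgeR adjusted p = 6.85e-27). *Dppa3*, which protects maternal methylation marks, rose by 1.65 ± 0.0564 on the log2 scale (edgeR adjusted p = 2.27e-23), *Tcl1*, a cofactor of AKT, by 1.42 ± 0.0406 (edgeR adjusted p = 1.64e-25) and *Fbxo15*, an early reporter gene of pluripotency, by 1.16 ± 0.0266 (edgeR adjusted p = 2.33e-28). In KO_PAPC versus KO all 4 were lower: *Dppa3* fell by 3.17 on the log2 scale (edgeR adjusted p = 4.64e-30) and *Tcl1* fell by 2.91 (edgeR adjusted p = 1.02e-33).

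The core factors shared by naive and later pluripotent cells did not take that course. Of 8 such genes, 3 were higher and 4 lower in KO versus WT, near the 36.8% and 37.1% over all tested genes. All 8 were higher in KO_PAPC versus WT, where 34.2% of all tested genes were higher and 36.4% lower. Of these, *Sox2* was higher by 0.073 only and lower instead with library totals. Past a minimum fold of 2, 0 of the 8 were called in KO_PAPC versus WT. *Pou5f1* did not pass the test in KO versus WT (log2 fold change 0.025, 95% confidence interval -0.019 to 0.069, edgeR adjusted p = 0.304) and was higher in KO_PAPC versus KO (0.44 ± 0.0245, edgeR adjusted p = 1.33e-18). *Sox2* was higher in KO than in WT EBs (0.56 ± 0.0201, edgeR adjusted p = 9.9e-23) and lower in KO_PAPC versus KO (-0.48 ± 0.0233, edgeR adjusted p = 1.77e-20). *Lin28a*, an RNA-binding protein that rises on exit from the naive state, was at 334, 331 and 325 CPM in WT, 161, 166 and 166 CPM in KO and 568, 559 and 567 CPM in KO_PAPC. *Foxd3*, a forkhead factor that primes enhancers, ran the same way, at 25.0, 27.9 and 27.3 CPM in WT, 8.75, 9.17 and 9.10 CPM in KO and 40.0, 46.0 and 43.7 CPM in KO_PAPC.

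Most genes that mark cells leaving the naive state moved opposite to the naive factors. Of 10 formative and primed genes, 7 were lower and 2 higher in KO versus WT (median log2 fold change -0.33). Among all tested genes, 37.1% were lower and 36.8% higher between these groups. None of the 10 passed a minimum fold of 2 there, so the shifts in KO were small. With PA/PC, 9 were higher and 1 lower than in KO (median 1.35), beside 39.6% and 42.2% of all tested genes. Past a minimum fold of 2, 6 of the 10 were higher with PA/PC and 0 lower, beside 6.26% and 14.4% of all tested genes. *Dnmt3b*, a de novo DNA methyltransferase, was at 215, 219 and 221 CPM in WT, at 149, 149 and 152 CPM in KO and at 631, 613 and 615 CPM in KO_PAPC. *Dnmt3a*, its relative, was at 332, 338 and 333 CPM in WT, at 207, 212 and 210 CPM in KO and at 574, 579 and 585 CPM in KO_PAPC. Both were called lower in KO (log2 fold changes of -0.54 ± 0.0255 and -0.67 ± 0.0235, edgeR adjusted p = 2.03e-19 and 4.07e-23) and higher in KO_PAPC versus KO (2.21 ± 0.0261 and 1.63 ± 0.0252, edgeR adjusted p = 2.11e-39 and 7.17e-36). *Etv4*, an ETS factor of FGF signalling, instead rose in KO (0.90 ± 0.037, edgeR adjusted p = 3.89e-21) and fell in KO_PAPC versus KO (-1.04 ± 0.0399, edgeR adjusted p = 1.79e-23).

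Genes listed as regulators of exit from the naive state, whether they promote or oppose it, gave no single direction. Of 8 such genes, 4 were higher and 3 lower in KO versus WT (median log2 fold change 0.060), with none past a minimum fold of 2. Over all tested genes, 36.8% were higher and 37.1% lower. *Tcf7l1*, the repressor that WNT signals relieve, was lower in KO (-0.63 ± 0.0358, edgeR adjusted p = 3.58e-17) and higher in KO_PAPC versus KO (0.82 ± 0.0347, edgeR adjusted p = 4.04e-22). *Mbd3*, a subunit of the NuRD repressor complex, did likewise (-0.50 ± 0.0297, edgeR adjusted p = 1.48e-16, and 0.96 ± 0.0288, edgeR adjusted p = 7.84e-27). *Zfp706* and *Etv5* had the signs of the naive factors, with log2 fold changes of 0.58 ± 0.0248 and 0.50 ± 0.0227 between KO and WT (edgeR adjusted p = 1.31e-20 and 6.51e-20).

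**Figure D5:**
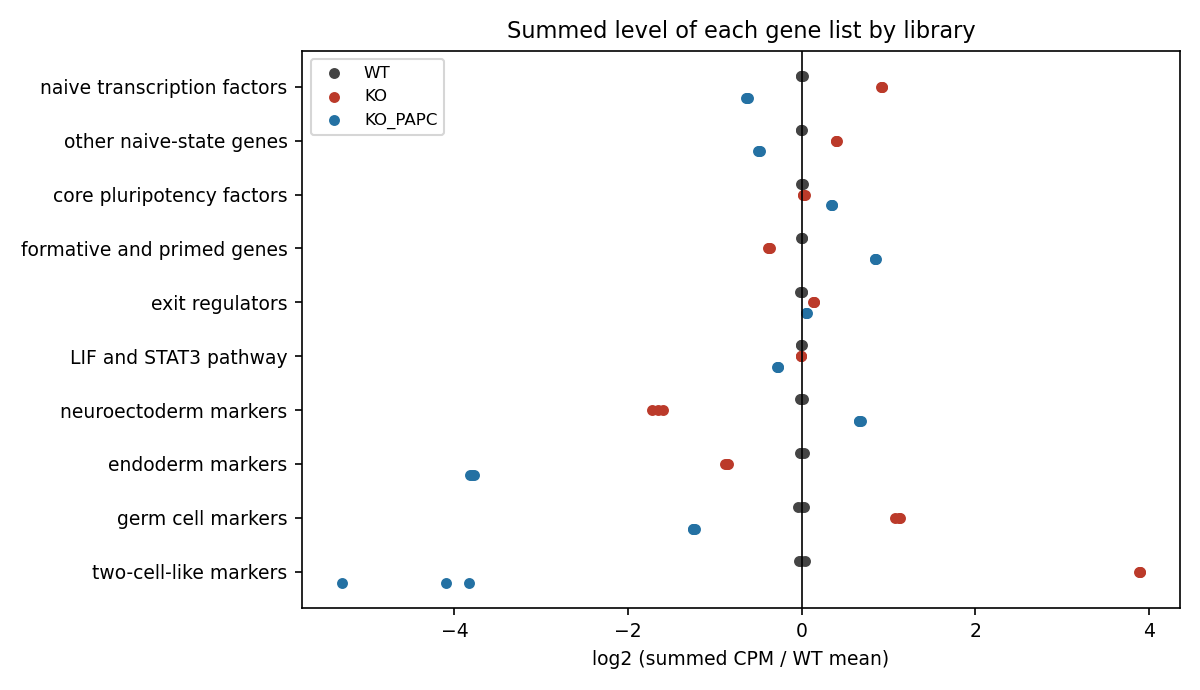
Summed CPM of 10 gene lists in each library, as the log2 ratio to the WT mean (horizontal axis). Points are libraries. In KO the naive factors, other naive-state genes, germ cell markers and two-cell-like markers lie right of WT, and in KO_PAPC all of these lie left of it. Exit regulators and core pluripotency factors lie right of WT by less in KO, and right of it in KO_PAPC too.

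Markers of other cell states changed beside the naive factors, and their part in the results above was not tested. Two-cell-like markers, 6 genes of the rare ES cells that resemble the early embryo, summed to 5.50 to 5.79 CPM in WT, 83.6 to 83.9 CPM in KO and 0.144 to 0.396 CPM in KO_PAPC, where *Tcstv1* was at 0 in every library. All 6 were called higher in KO. Over all tested genes, 36.8% were called higher and 37.1% lower in KO versus WT. *Zscan4d*, of the *Zscan4* family, was at 2.22, 1.94 and 2.17 CPM in WT and at 36.7, 39.4 and 40.0 CPM in KO. Sequence shared among the *Zscan4* genes was not measured. Germ cell markers summed to 197 to 206 CPM in WT, 425 to 443 in KO and 84.6 to 86.0 in KO_PAPC. Most of the sum in KO was *Tfap2c*, at 53.3, 54.6 and 53.9 CPM in WT and at 292, 298 and 293 CPM in KO. Of the 6 germ cell genes, *Prdm1*, *Tfap2c* and *Nanos3* were higher in KO (log2 fold changes 0.79, 2.45 and 2.40). The other 3, *Dnd1*, *Ddx4* and *Dazl*, were lower (-0.15, -1.13 and -0.15).

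Markers of differentiated lineages moved in various directions. Endoderm markers summed to 488 to 501 CPM in WT, 267 to 274 in KO and 34.8 to 36.0 in KO_PAPC, and 8 of 10 were lower in KO and all 10 lower in KO_PAPC versus KO. Neuroectoderm markers summed to 141 to 145 CPM in WT, 43.1 to 46.9 in KO and 226 to 229 in KO_PAPC, and all 5 tested genes were lower in KO and higher in KO_PAPC versus KO. *Sox1*, the earliest of them, was at 68.9, 71.1 and 75.0 CPM in WT, at 19.8, 18.2 and 17.7 CPM in KO and at 119, 119 and 120.3 CPM in KO_PAPC. The sums of the other lists hide genes that moved apart. Mesoderm markers summed to 41.0 to 44.9 CPM in WT, 36.0 to 37.5 in KO and 50.2 to 53.1 in KO_PAPC, with 2 of 7 tested genes called up and 4 called down between KO and WT, and 4 of 6 up and 2 down between KO_PAPC and KO. Of these, *T*, the early mesoderm factor Brachyury, was lower in KO (log2 fold change -2.69 ± 0.258) and higher in KO_PAPC versus KO (5.87 ± 0.154), whereas *Hand1* and *Kdr* were higher in KO (2.54 ± 0.166 and 1.73 ± 0.131) and lower in KO_PAPC versus KO (-4.19 ± 0.232 and -3.45 ± 0.183), all called in edgeR with an adjusted p of 2.96e-11 or less. The sizes of these changes rest on few counts. *T* had 6, 7 and 12 counts in the KO libraries. In those of KO_PAPC, *Hand1* had 6, 8 and 4 and *Kdr* 8, 21 and 14. Trophoblast markers summed to between 11.95 and 12.78 CPM in all 9 libraries, yet *Krt7* rose in KO (1.71 ± 0.174, edgeR adjusted p = 1.1e-10) and *Tfap2a* fell (-0.64 ± 0.107, edgeR adjusted p = 2.6e-06), the only 2 of 5 tested genes that were called. Fibroblast markers summed to 43.2 to 44.9 CPM in WT, 29.8 to 30.1 in KO and 13.2 to 14.6 in KO_PAPC. In WT most of that sum was *Pdgfra*, which was at 35.8, 34.6 and 35.8 CPM in WT, 13.8, 12.2 and 13.9 CPM in KO and 2.63, 2.30 and 2.08 CPM in KO_PAPC. Yet 4 of the 5 genes were higher in KO_PAPC versus WT, where 34.2% of all tested genes were.

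Some members have close relatives whose transcripts could be compared. Of 9 such genes 6 were tested, and 3 of these were higher and none lower in KO versus WT. Over all tested genes, 36.8% were higher and 37.1% lower. The median log2 fold change of the 6 was 0.039, and 0 of them passed a minimum fold of 2. *Prdm1*, related to *Prdm14*, was at 17.4, 17.1 and 15.7 CPM in WT, 29.7, 28.3 and 28.9 CPM in KO and 5.58, 5.23 and 4.81 CPM in KO_PAPC. *Esrra*, related to *Esrrb*, was higher in KO by 0.39 ± 0.0422 on the log2 scale (edgeR adjusted p = 3.95e-10), and *Ubp1*, related to *Tfcp2l1*, by 0.10 ± 0.0251 (edgeR adjusted p = 0.00049). *Yy2*, related to *Zfp42*, was at 0 counts in every library.

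Likeness of pattern was measured as the root mean square difference of centred log2 CPM over the 9 libraries, among 9781 other genes. The nearest gene to *Esrrb* was *Cluh* (0.018), to *Klf5* *mt-Nd4* (0.030), to *Zfp42* its pseudogene *Zfp42-ps1* (0.035), to *Nanog* *H1f0* (0.037), to *Klf4* *Spen* (0.041), to *Nr5a2* *mt-Nd2* (0.050), to *Klf2* *Plcd1* (0.066), to *Prdm14* *Phf11d* (0.072), to *Tfcp2l1* *Dsp* (0.083) and to *Tbx3* *Mfsd12* (0.088). Within the set, *Tfcp2l1* and *Prdm14* were each other's nearest member (0.12), as were *Esrrb* and *Nr5a2* (0.098). Only 5 other genes came closer to *Tfcp2l1* and 3 to *Prdm14* than they did to each other, whereas 5383 genes lay nearer to *Klf5* than its closest fellow member, *Esrrb* (0.36).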

How the data were processed

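RNA was sequenced from 9 libraries of mouse EBs, 3 each of WT, KO and KO_PAPC, as 51-cycle single-end reads of unstranded TruSeq RNA v2 libraries. The authors deposited raw counts per gene, mapped to GRCm38 with STAR 2.7.2b and counted with featureCounts 1.6.5 per the labels. The study's methods describe an earlier pipeline for its comparison of *Tnfaip2*-/- with WT EBs. The WT columns lie in the same table, but whether those libraries were made with the others is not stated. Total counts ranged from 27362913 to 28914312 per library.

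Each comparison was fitted on its own 6 libraries using edgeR 4.0.16 in R 4.3.3 (quasi-likelihood test, TMM size factors, filterByExpr, Benjamini-Hochberg over all tested genes, called at an adjusted p under 0.05). A minimum fold of 2 was tested with glmTreat. CPM were computed on library totals, and exon lengths came from GENCODE M21. Alternatives included DESeq2 1.42.0, other size factors and filters, a joint fit, a replicate block and each library left out. The edgeR fit was tested on simulated data.

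The members and gene lists were chosen with earlier results of these data known. All 10 members were named, and from other lists at most 4 genes with the smallest adjusted p in KO versus WT, with the LIF and KLF lists open in full. Also named were *Tnfaip2*, *Pou5f1*, *Tcstv1*, *Yy2*, the remaining germ cell markers, pseudogenes of members and the genes nearest to members in pattern. Replicate pairs differed by more than sampling noise (chi-square per degree of freedom of 1.22 to 3.45 over genes with at least 20 counts). The excess was small: the common biological coefficient of variation of the fits was 2.09% to 2.65%. With so little spread between libraries, small changes were called. Of the gene IDs, 241 had no GENCODE match. Promoters are from RefSeq. Counts of *Tnfaip2* were too low to be tested in KO versus WT.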

Additional observations from a re-analysis of the deposited data

How the results depend on the processing

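Of 390 fits of a member under an alternative setting (13 settings, 10 members, 3 comparisons), 389 kept direction and call. The exception was *Klf2* in KO_PAPC versus WT with library totals (0.064, edgeR adjusted p = 0.158), which left 0 members called higher there in place of 1. The range over settings of the log2 fold change was 1.003 to 1.03 for *Nanog* and -0.24 to -0.21 for *Klf5* in KO versus WT. Members past a minimum fold of 2 in KO versus WT numbered 2 with DESeq2 or without the filter and 2 to 3 without 1 library. In KO_PAPC versus KO they numbered 7 with DESeq2, without the filter, with the replicate block and without any 1 library. With the replicate block, 10 members were called in each comparison. Same-numbered libraries correlated by -0.11 to 0.14 in their deviations. Libraries of different numbers were not correlated, so these values cannot tell whether the numbers pair the libraries.

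Among 1703 fits of other named genes, 1662 kept direction and call. With library totals, log2 fold changes in KO_PAPC versus WT reversed for *Stat3* (-0.13), *Sox2* (-0.092), *Zfp706* (-0.087), *Etv5* (-0.039), *Ubp1* (-0.15) and *Nanos3* (-0.017). The values of *Stat3* (edgeR adjusted p = 0.00167), *Sox2*, *Zfp706* and *Ubp1* were then called. *Stat3* in KO_PAPC versus KO was called lower with library totals (-0.19, edgeR adjusted p = 9.47e-06), and was at 0.0045 without the filter and at 0.0016 without KO_PAPC replicate 1, within a range of -0.041 to 0.0016 without 1 library. *Klf11* in KO_PAPC versus WT was called lower with library totals (-0.18, edgeR adjusted p = 0.00019), and was at 0.0055 with DESeq2, 0.0019 without the filter, 0.0084 without WT replicate 2 and 0.0034 without KO_PAPC replicate 2, within a range of -0.032 to 0.0084 without 1 library. Apart from the scaling itself, the cause was not tested. The rise of *Jak1* in KO was lost with DESeq2 (adjusted p = 0.0655), without the filter (edgeR adjusted p = 0.0625) and without WT replicate 3 (edgeR adjusted p = 0.102).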
